A study of Homo sapiens with 13 samples.

Results

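SKOV3 ovarian carcinoma cells that carried RSF1 or RSF1delUAB had transcripts of 37 genes that were at 0 counts in all 3 control libraries, and lacked or nearly lacked 22 transcripts that the control cells made. The 37 genes, called on genes here, had 0 counts summed over the control libraries and at least 20 counts in each of the 6 construct libraries. The 22 genes, called off genes here, had at least 20 counts in each control library and at most 6 counts summed over the 6 construct libraries. Together they are 59 of the 62703 genes in the count table. Genes with symbols starting COL, ZNF, PCDH, SERPINB or HOX, and genes on chromosome 11 that start at 75 to 80 Mb, around the RSF1 gene, were left out; 41 genes met the counts for on and 23 for off before that step. The values that chose these genes compare both constructs with the control, so their levels against the control are a description and were not tested. Of the 22 off genes, 7 had 0 counts in all 6 construct libraries and 15 had 1 to 6 counts, so off means a residue of a few reads at most and not always none.

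The libraries hold poly-A RNA of 2 human cell lines grown from ascites of patients with ovarian carcinoma. SKOV3 cells overexpressed RSF1, overexpressed RSF1delUAB, which lacks the UAB region, or carried a control vector, with 3 libraries each. OVCAR3 cells expressed a peptide of the UAB region or a scrambled peptide, with 2 libraries each, and all 4 were taken after 6 days in 2000 ng/ml doxycycline. The labels do not say whether the transduced lines were clones or pools, which promoter drove the constructs, or whether replicates were separate cultures, so every p-value here reflects how far these particular libraries vary, perhaps for technical reasons alone. A construct and the history of the culture that carries it cannot be told apart here. In bulk RNA, fewer cells with a transcript and less of it per cell also cannot be told apart.

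RSF1 is a histone chaperone that works with the ATPase SMARCA5 in the RSF chromatin remodelling complex. Through its UAB region it binds histone H2A that carries ubiquitin, a mark set by Polycomb repressive complexes on silent genes. Besides Polycomb, cells keep genes silent by methylating cytosine in CpG dinucleotides of promoters and by packing DNA into heterochromatin, and such silence is passed on through cell divisions, so that sublines of a cancer line can differ in which genes they transcribe at all.

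Total counts were 15194678 to 15723756 in RSF1, 16152777 to 18748009 in RSF1delUAB and 15488615 to 15856521 in control libraries, and 18160558 to 20076382 in UAB and 23256691 to 24026993 in scrambled peptide libraries. Levels are CPM, counts scaled to TMM-adjusted library totals, as mean ± SD with n = 3 in SKOV3 and n = 2 in OVCAR3. A gene at 0 counts in a control library may still stand at up to 0.199 CPM, the value of 3 counts in the shallowest of them. Log2 CPM correlated at 0.987 to 0.992 within SKOV3 groups and at 0.900 to 0.964 between them, against 0.985 to 0.987 and 0.963 to 0.970 in OVCAR3. The RSF1 gene stood at 631, 775 and 749.8 CPM in RSF1 and at 459, 496 and 509 CPM in RSF1delUAB libraries, against 42.2, 47.5 and 42.2 CPM in control libraries. It was at 787 and 586 CPM in UAB libraries, against 564 and 707 CPM in scrambled peptide libraries. Counts per gene do not separate construct from endogenous reads.

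The promoters of the genes with the highest levels among those with a RefSeq entry show how different the DNA at these starts is. They are from RefSeq on GRCh38.p14 and run from 250 bases before to 50 bases after the annotated start, 5′ to 3′ on the gene's strand, with every CpG in capitals. The on genes ARRDC4 (chr15:97960453-97960752, plus strand), LRATD1 (chr2:14632467-14632766, plus strand) and SLC2A10 (chr20:46709399-46709698, plus strand) hold 24, 39 and 31 CpGs.
ARRDC4: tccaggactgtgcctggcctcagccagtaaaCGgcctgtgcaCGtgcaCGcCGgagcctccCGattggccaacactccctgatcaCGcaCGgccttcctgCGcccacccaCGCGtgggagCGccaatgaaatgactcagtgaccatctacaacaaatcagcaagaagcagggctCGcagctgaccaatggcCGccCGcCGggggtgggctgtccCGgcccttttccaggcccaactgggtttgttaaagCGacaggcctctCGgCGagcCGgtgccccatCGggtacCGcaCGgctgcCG
LRATD1: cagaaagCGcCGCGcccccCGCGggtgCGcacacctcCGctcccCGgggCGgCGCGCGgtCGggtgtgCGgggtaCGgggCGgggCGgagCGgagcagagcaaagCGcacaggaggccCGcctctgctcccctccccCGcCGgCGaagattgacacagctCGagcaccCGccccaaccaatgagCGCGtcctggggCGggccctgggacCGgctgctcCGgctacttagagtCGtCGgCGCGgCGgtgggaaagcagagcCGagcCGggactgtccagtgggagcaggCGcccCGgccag
SLC2A10: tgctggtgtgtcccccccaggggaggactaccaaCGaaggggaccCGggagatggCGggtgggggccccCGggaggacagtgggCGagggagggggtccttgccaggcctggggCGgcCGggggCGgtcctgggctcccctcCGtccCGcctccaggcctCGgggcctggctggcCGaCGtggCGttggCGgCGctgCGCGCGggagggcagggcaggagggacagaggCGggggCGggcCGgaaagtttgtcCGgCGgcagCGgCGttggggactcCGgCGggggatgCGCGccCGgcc
The off genes TMPRSS15 (chr21:18403736-18404035, minus strand), LINC02241 (chr5:20611590-20611889, plus strand) and CNTNAP2 (chr7:146116551-146116850, plus strand) hold 0, 4 and 16 CpGs.
TMPRSS15: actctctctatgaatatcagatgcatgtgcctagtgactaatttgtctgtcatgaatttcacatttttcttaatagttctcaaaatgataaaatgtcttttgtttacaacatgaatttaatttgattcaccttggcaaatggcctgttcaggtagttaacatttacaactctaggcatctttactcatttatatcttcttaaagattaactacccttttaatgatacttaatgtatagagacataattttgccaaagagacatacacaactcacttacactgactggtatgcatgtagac
LINC02241: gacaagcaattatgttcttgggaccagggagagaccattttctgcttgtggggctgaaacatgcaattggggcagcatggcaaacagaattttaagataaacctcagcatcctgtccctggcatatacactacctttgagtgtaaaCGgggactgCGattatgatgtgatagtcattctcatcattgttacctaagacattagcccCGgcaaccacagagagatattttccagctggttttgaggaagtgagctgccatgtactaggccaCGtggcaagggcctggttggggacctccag
CNTNAP2: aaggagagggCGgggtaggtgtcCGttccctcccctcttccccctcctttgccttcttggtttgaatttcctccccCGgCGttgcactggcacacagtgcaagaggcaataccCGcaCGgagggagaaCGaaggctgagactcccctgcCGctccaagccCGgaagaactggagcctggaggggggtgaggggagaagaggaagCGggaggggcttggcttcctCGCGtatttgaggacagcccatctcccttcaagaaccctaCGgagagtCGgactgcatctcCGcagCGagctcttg

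The median over all 27303 promoters of the table was 14 CpGs. These 6 promoters were picked by level and do not stand for all 59 genes. A comparison over the on and off genes is void, because 19 of 37 on genes (51.4%) and 14 of 22 off genes (63.6%) have an entry, under the 80% that was required. Read on both strands, GGGCGG, the core of the GC box, was in the windows of ARRDC4, LRATD1, SLC2A10 and CNTNAP2 and in 44.6% of all promoters. TATAAA, the TATA box, was in that of TMPRSS15 and in 11.9% of all. CACGTG, an E-box, was in those of ARRDC4 and LINC02241 and in 7.43% of all. TGACTCA, an AP-1 motif, was in that of ARRDC4 and in 4.92% of all. No motif of these 4 contains another, and a match describes letters and not binding. The annotation in the count table starts TMPRSS15 at 18485879 and CNTNAP2 at 146116002, outside the windows shown.

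On genes encoded proteins in 28 cases and RNAs or pseudogenes without a protein in 9. Their mean level over the 6 construct libraries ranged from 1.55 to 73.4 CPM, with a median of 5.42 CPM, against 30.6 CPM for all genes with 20 or more counts in each construct library. Per kilobase of exon they lay between percentiles 4.27 and 88.8 of tested genes, with a median of 35.8. Summed, the on genes took 366, 379 and 373 CPM in RSF1 and 451, 457 and 452 CPM in RSF1delUAB libraries, against 0 in each control library. Against 3 counts over the control group, the lower bound of the fold ran from 25.9 to 1102 in RSF1 cells and from 21.2 to 1736 in RSF1delUAB cells, with medians of 72.6 and 85.8; bounds and counting intervals here cover counting error alone. By the rule, each on gene had at least 20 counts in each of the 6 construct libraries, so none could rest on 1 library. The lowest of the 3 RSF1 libraries was replicate 1 for 17 genes, replicate 2 for 6 and replicate 3 for 14. The 3 RSF1delUAB libraries were lowest for 10, 13 and 14 genes.

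**Figure D1:**
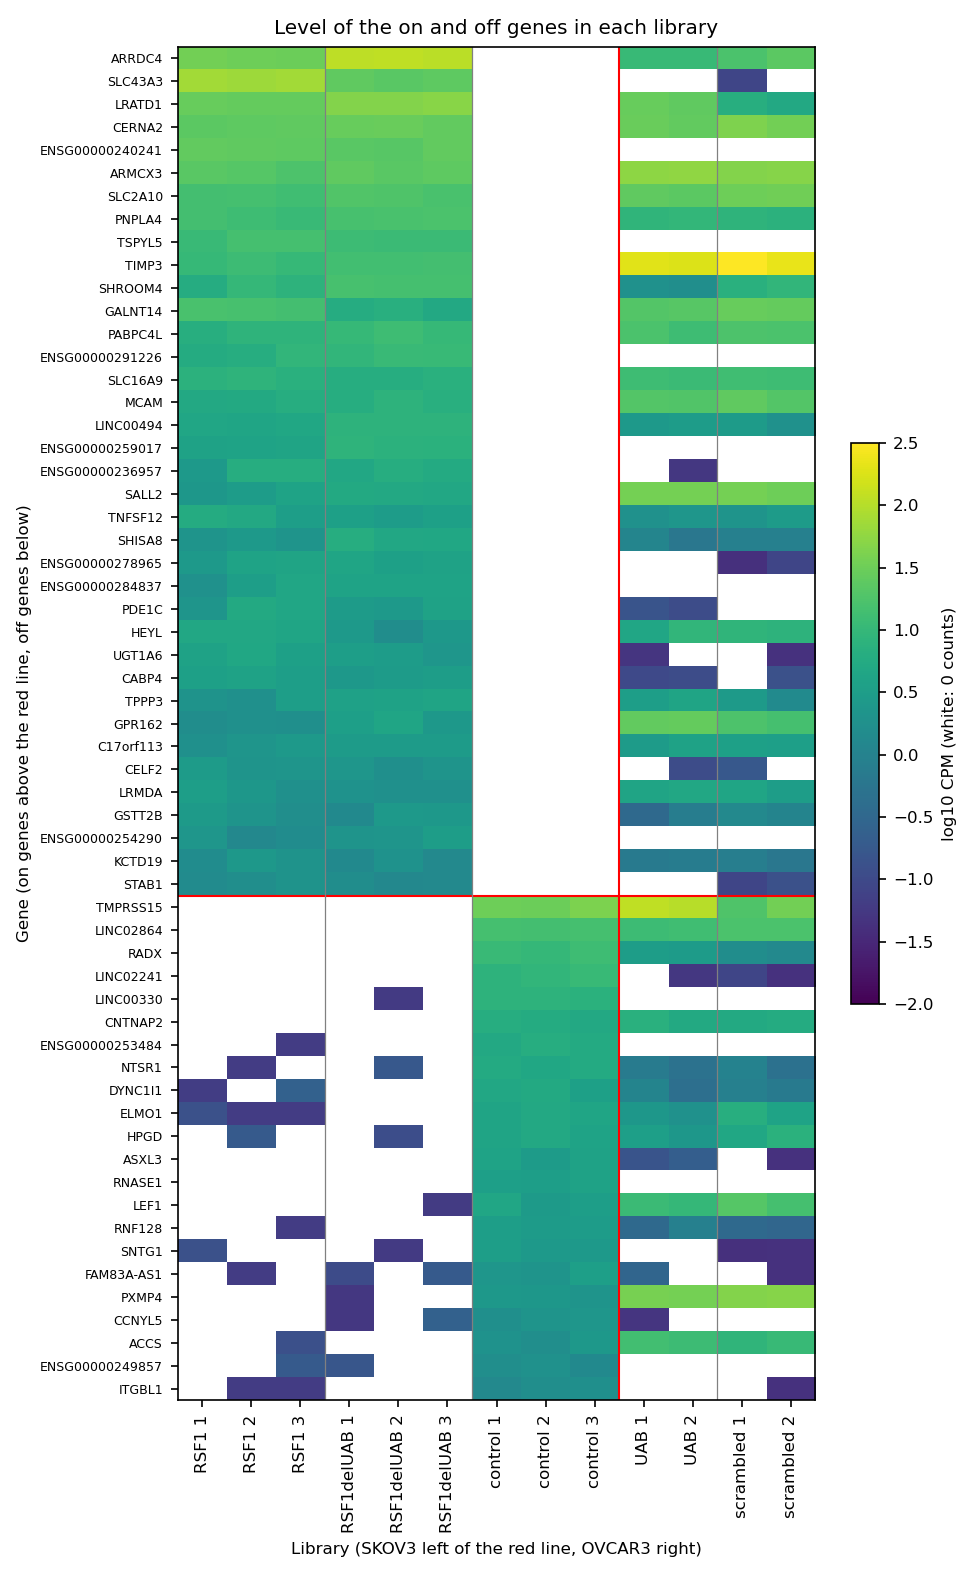
Level of each of the 59 genes in each of the 13 libraries as log10 CPM, with white for 0 counts; SKOV3 libraries stand left of the vertical red line and OVCAR3 libraries right of it, on genes above the horizontal red line and off genes below it, each sorted by their level in SKOV3. The blank block over the 3 control libraries and the nearly blank block under the 6 construct libraries follow from how the genes were chosen, while the 4 OVCAR3 columns show on and off genes present side by side.

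Among on genes with a protein, 3 are solute carriers. SLC43A3, which carries purine nucleobases across the plasma membrane, had 73.7, 69.2 and 74.2 CPM in RSF1 and 24.8, 22.6 and 24.5 CPM in RSF1delUAB libraries. SLC2A10, the glucose transporter GLUT10, had 14.02, 14.8 and 13.1 CPM in RSF1 and 18.9, 18.2 and 16.1 CPM in RSF1delUAB libraries. SLC16A9, a monocarboxylate transporter family member, had 7.81 ± 0.587 CPM in RSF1 and 6.59 ± 0.481 CPM in RSF1delUAB libraries. SLC43A3 was thus higher in every RSF1 library than in any RSF1delUAB library, and SLC2A10 lower. How many of all genes separate in this way was not counted, here or for the genes below. Of all tested genes, 38.6% were called between the constructs.

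Of surface, secreted and signalling genes there are 9. ARRDC4, an alpha-arrestin that helps to remove glucose transporters from the cell surface, had 34.7, 32.5 and 31.1 CPM in RSF1 and 113, 119 and 110 CPM in RSF1delUAB libraries. It was the highest on gene in every RSF1delUAB library, while SLC43A3 was in every RSF1 library. TIMP3, a matrix-bound inhibitor of metalloproteinases, had 10.2, 11.9 and 10.3 CPM in RSF1 and 13.6, 13.5 and 14.2 CPM in RSF1delUAB libraries. MCAM, the adhesion molecule CD146, had 5.15, 5.46 and 6.47 CPM in RSF1 and 6.27, 8.20 and 6.84 CPM in RSF1delUAB libraries. Groups of ARRDC4 and TIMP3 did not overlap, and those of MCAM did. The other 6 had at most 6.33 CPM in any SKOV3 library: the TNF family cytokine TNFSF12, SHISA8 of the Shisa family of membrane proteins, the orphan receptor GPR162, the calcium-binding protein CABP4 known from photoreceptors, the calmodulin-dependent phosphodiesterase PDE1C and the scavenger receptor STAB1 of macrophages and sinusoidal endothelium.

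The 5 nuclear and RNA-binding genes were TSPYL5 of the nucleosome assembly protein family, the zinc finger factor SALL2, the Notch target and repressor HEYL, the splicing regulator CELF2 and PABPC4L, a relative of the cytoplasmic poly-A binding protein. TSPYL5 had 11.3, 14.8 and 14.7 CPM in RSF1 and 12.2, 11.7 and 11.5 CPM in RSF1delUAB libraries. SALL2 had 2.41, 3.05 and 4.09 CPM in RSF1 and 5.48, 5.26 and 4.99 CPM in RSF1delUAB libraries. TSPYL5 overlapped between the constructs and SALL2 did not, and both were at 0 in the control.

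The 4 enzymes were GALNT14, which starts O-linked sugar chains, PNPLA4, a lipase that also acts on retinyl esters, the glucuronosyltransferase UGT1A6 and the glutathione transferase GSTT2B. GALNT14 had 16.04, 15.6 and 14.4 CPM in RSF1 and 6.17, 6.99 and 5.17 CPM in RSF1delUAB libraries, which did not overlap. PNPLA4 had 14.2, 12.8 and 11.4 CPM in RSF1 and 15.3, 16.2 and 17.1 CPM in RSF1delUAB libraries. UGT1A6 shares its last exons with 8 other UGT1A genes and GSTT2B is nearly identical to GSTT2, so their values are uncertain.

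Of the other 7 genes with a protein, LRATD1, a member of the LRAT domain family, was highest, at 28.7, 27.6 and 27.7 CPM in RSF1 and 46.4, 46.1 and 50.3 CPM in RSF1delUAB libraries. ARMCX3, an X-linked protein of the mitochondrial surface, had 21.9, 20.6 and 17.9 CPM in RSF1 and 24.7, 22.1 and 24.2 CPM in RSF1delUAB libraries. SHROOM4, an actin-binding protein, had 6.00, 9.78 and 8.23 CPM in RSF1 and 15.6, 15.2 and 14.7 CPM in RSF1delUAB libraries. LRATD1, ARMCX3 and SHROOM4 were lower in every RSF1 library than in any RSF1delUAB library, but ARMCX3 did not pass the test between the constructs (edgeR adjusted p = 0.0943). TPPP3, which promotes tubulin assembly, LRMDA, named for melanocyte differentiation, KCTD19, known from meiosis in the mouse testis, and C17orf113 were between 1.29 and 4.31 CPM. Of the 9 without a protein, CERNA2 was highest among those with a name, at 22.9, 24.4 and 25.6 CPM in RSF1 and 28.4, 29.5 and 26.3 CPM in RSF1delUAB libraries, and LINC00494 had 4.60 ± 0.186 CPM in RSF1 and 8.06 ± 0.0816 CPM in RSF1delUAB libraries.

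Off genes encoded proteins in 15 cases and none in 7. Their mean control level ranged from 1.58 to 34.6 CPM, with a median of 4.02 CPM, against 31.1 CPM for all genes with 20 or more counts in each control library. Summed, they took 0.326, 0.445 and 0.817 CPM in RSF1 and 0.372, 0.404 and 0.493 CPM in RSF1delUAB libraries, against 135, 132 and 145 CPM in control libraries. TMPRSS15, enteropeptidase, the gut protease that activates trypsinogen, made up 25.2% of the mean control sum. It had 0 counts in all 6 construct libraries, against 31.8, 31.4 and 40.5 CPM in control libraries. It was at least 542-fold lower in RSF1 and at least 604-fold lower in RSF1delUAB cells.

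The other enzymes were HPGD, which breaks down prostaglandins, the secreted ribonuclease RNASE1 and ACCS, a relative of plant ethylene-forming enzymes. HPGD had 0, 0.191 and 0 CPM in RSF1 and 0, 0.116 and 0 CPM in RSF1delUAB libraries, against 4.17, 5.11 and 4.01 CPM in control libraries. RNASE1 had 0 counts in the 6 construct libraries, against 3.51, 3.38 and 3.94 CPM in control libraries. That every control library was clear of the construct libraries follows from how the off genes were chosen.

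Of surface and signalling genes, CNTNAP2, a neurexin relative that clusters potassium channels on axons, had 0 counts in the construct libraries, against 6.42, 5.97 and 5.10 CPM in control libraries. ELMO1, which activates RAC together with DOCK proteins, had 0.130, 0.0635 and 0.0629 CPM in RSF1 and 0 counts in RSF1delUAB libraries, against 4.17, 5.18 and 4.46 CPM in control libraries. The neurotensin receptor NTSR1 had 1 count over the RSF1 and 3 counts over the RSF1delUAB libraries, against 5.62, 4.78 and 5.75 CPM in control libraries. ELMO1 was thus the gene of these with reads in every RSF1 library, at 4 counts in all. ITGBL1, a secreted protein with integrin-like repeats, was the lowest off gene, at 1.58 ± 0.223 CPM in control libraries.

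Of nuclear genes, RADX, which binds single-stranded DNA at replication forks, had 0 counts in the construct libraries, against 11.1, 9.95 and 12.7 CPM in control libraries. ASXL3, a partner of the deubiquitinase BAP1, which takes ubiquitin off histone H2A, had 0 counts in the construct libraries, against 4.04, 2.92 and 3.88 CPM in control libraries. LEF1, a Wnt-responsive transcription factor, had 1 count in 1 RSF1delUAB library and 0 in the other 5 construct libraries, against 4.63, 2.79 and 3.36 CPM in control libraries. The other genes with a protein were the dynein chain DYNC1I1, the syntrophin SNTG1, the peroxisomal membrane protein PXMP4 and the ubiquitin ligase RNF128, at 2.35 to 4.65 CPM in the control. Of transcripts without a protein, LINC02864 had 14.6, 14.4 and 14.7 CPM, LINC02241 8.01, 9.16 and 10.9 CPM and LINC00330 8.27, 7.96 and 7.495 CPM in control libraries; the 6 construct libraries held 0, 0 and 1 count of them.

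The limits of 20 counts divide a continuous range. Just inside, the on genes KCTD19, STAB1 and GPR162 had 21, 21 and 25 counts in their lowest construct library, and just outside KCNJ12, LINC02104 and SLC22A17 had 17, 16 and 14. On the off side ITGBL1, ACCS and PXMP4 had 20, 25 and 33 counts in their lowest control library, and L3MBTL4, CYP4F3 and LINC00562, just outside, had 18, 17 and 14. Whether a gene counts as on or off also depends on depth, since 20 counts stand for 1.06 to 1.33 CPM in these libraries.

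The rule asked the same of RSF1 and RSF1delUAB and did not compare them. It kept only genes with at least 20 counts in each library of both, so genes on in 1 construct alone are left out. The comparison asks whether the UAB region goes with the level of a gene that is on in both. The RSF1 gene itself stood at 719 CPM in RSF1 and 488 CPM in RSF1delUAB cells. The UAB region and the level of the construct therefore cannot be told apart. All 37 on genes were tested. Of these, 3 were higher and 14 lower in RSF1 than in RSF1delUAB cells, and 20 did not pass (edgeR quasi-likelihood test, Benjamini-Hochberg adjusted p under 0.05 over all 16735 tested genes). Over all tested genes 18.5% were higher and 20.2% lower, 38.6% in either direction, so the share of on genes called in either direction, 45.9%, lay near the background, with fewer higher and more lower. The median log2 fold change was -0.24 over on genes and 0.00 over all tested genes, and its median size was 0.41 and 0.27. Off genes are at or near 0 in both constructs and carry no information on this question.

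SLC43A3 had a log2 fold change of 1.59 ± 0.0823 in RSF1 over RSF1delUAB cells (SE, edgeR adjusted p = 3.28e-11). GALNT14 was higher by 1.32 ± 0.143 (edgeR adjusted p = 6.95e-07), and HEYL, at 5.09, 4.95 and 4.46 CPM in RSF1 and 2.77, 1.62 and 2.52 CPM in RSF1delUAB libraries, by 1.06 ± 0.239 (edgeR adjusted p = 0.00164). These were the only on genes to pass upwards, and each differed by at least 2-fold.

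ARRDC4 had the lowest log2 fold change, -1.80 ± 0.0771 (edgeR adjusted p = 2.63e-12). SHISA8 had 2.15, 2.73 and 2.14 CPM in RSF1 and 6.33, 4.91 and 4.80 CPM in RSF1delUAB libraries, a log2 fold change of -1.19 ± 0.223 (edgeR adjusted p = 0.000326). ARRDC4 and SHISA8 were the 2 on genes lower by at least 2-fold. The next with a name were GPR162 at -0.99, SHROOM4 at -0.92, LINC00494 at -0.81 and LRATD1 at -0.76 (edgeR adjusted p = 0.00832, 0.000105, 0.000645 and 9.92e-07). TPPP3, SALL2, PABPC4L, SLC2A10, TIMP3 and PNPLA4 passed with log2 fold changes of -0.74 to -0.34. A lincRNA identifier passed at -0.96 and an unclassified identifier at -0.53. Without RSF1delUAB replicate 2 the number lower was 7 in place of 14, and without RSF1delUAB replicate 1 it was 9.

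Of the 9 surface, secreted and signalling genes 4 were lower, as were 3 of the 7 cytoskeletal, organelle and other genes and 3 of the 9 without a protein; the others of these groups did not pass. Solute carriers and enzymes had 1 gene in each direction, and of the 5 nuclear and RNA-binding genes 1 was higher and 2 lower. Over all tested genes 18.5% were higher and 20.2% lower, and in groups this small the counts move with single calls. Among genes that did not pass, CERNA2 had a log2 fold change of -0.21 ± 0.0966, ARMCX3 of -0.24 ± 0.107 and TSPYL5 of 0.21 ± 0.133. The summed level of 7 ovarian carcinoma and Muellerian markers was 2592 to 3322 CPM in RSF1 and 7701 to 8195 CPM in RSF1delUAB libraries. It was 8640 to 9359 CPM in control libraries, and MUC16 had 4, 0 and 3 counts over the RSF1, RSF1delUAB and control libraries. ERBB2 made up most of this sum, at 2493, 7567 and 8430 CPM in RSF1, RSF1delUAB and control libraries. Of the 6 tested markers 2 were higher and 3 lower in RSF1 than in RSF1delUAB cells, with PAX8 at 383, 280 and 506 CPM in the 3 groups. The sum of 3 mesothelial markers was 30.6 to 37.5, 15.7 to 16.2 and 14.6 to 16.2 CPM in these groups, with CALB2 at 0 in control. Of these, LRRN4 was at 26.1, 7.55 and 7.84 CPM and UPK3B at 8.07, 8.27 and 7.77 CPM. The summed level of 6 fibroblast markers was 182 to 192 CPM in RSF1 and 286 to 293 CPM in RSF1delUAB against 11.7 to 11.9 CPM in control libraries, with PDGFRB at 0 counts in RSF1delUAB and control. That of 6 epithelial markers was 972 to 1146, 1131 to 1204 and 640 to 687.5 CPM in these groups, with KRT8 at 633, 711 and 335 CPM. That of 4 neural markers was 40.1 to 44.8, 43.3 to 47.7 and 21.3 to 22.1 CPM. Muscle markers summed to 2.39 to 3.30, 2.92 to 3.63 and 0.398 to 1.19 CPM. Melanocyte markers summed to 2.73 to 3.96, 2.87 to 3.08 and 2.32 to 2.98 CPM, and MYOD1 and TYR were at 0 in all 3 groups. Within that sum PMEL was at 2.64, 2.60 and 1.05 CPM and MLANA, the other way, at 0.591, 0.345 and 1.53 CPM. The summed level of 4 endothelial markers was 0.635 to 0.943, 0.532 to 0.924 and 5.23 to 7.63 CPM in these groups, with CDH5 at 2, 1 and 0 counts. That of 6 immune markers was 2.15 to 2.33, 1.81 to 2.14 and 0.646 to 0.929 CPM, with CD3E at 0 in all 3. The 2 tested immune markers were higher in both constructs than in control, while CD14 had 5, 10 and 23 counts over these groups. The part of all these markers in the on genes' levels was not tested.

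**Figure D2:**
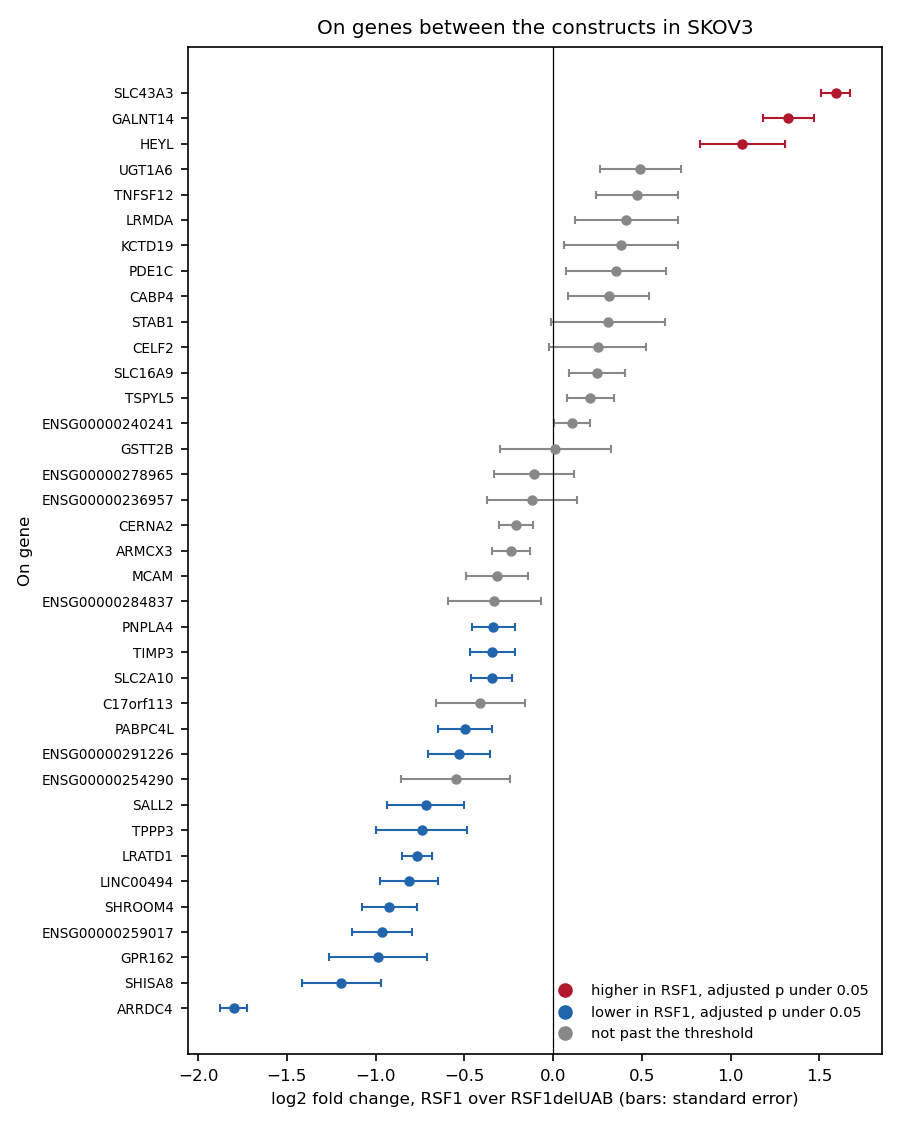
Log2 fold change of each of the 37 on genes in RSF1 over RSF1delUAB cells (points, with bars for the standard error), in red where higher and blue where lower with an adjusted p under 0.05 and grey otherwise. SLC43A3 at 1.59 and ARRDC4 at -1.80 mark the ends, with 3 red and 14 blue genes.

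OVCAR3 shows which of these genes another ovarian carcinoma line transcribes. The 2 lines are separate tables, so levels are set side by side without a test. Of the 37 on genes, 20 (54.1%) had at least 1 CPM in each of the 4 OVCAR3 libraries, against 91.7% of all genes with 20 or more counts in each construct library, whose levels are higher. Of the 22 off genes, 9 (40.9%) did, against 91.2% of all genes with 20 or more counts in each control library. Of on genes, 18 of 28 with a protein and 2 of 9 without one were present, against 94.4% and 67.6% of all genes of these kinds with 20 or more counts in each construct library. Of off genes, 8 of 15 with a protein and 1 of 7 without one were, against 94.2% and 66.1% of those with 20 or more counts in each control library. In all 4 libraries 6 on genes and 4 off genes had 0 counts.

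TIMP3 was the highest on gene in OVCAR3, at 200 and 187 CPM in UAB and 327 and 222 CPM in scrambled peptide libraries. ARMCX3 had 55.2 and 56.9 CPM in UAB and 45.8 and 47.6 CPM in scrambled peptide libraries, SALL2 36.03 and 36.2 CPM in UAB and 36.5 and 32.7 CPM in scrambled peptide libraries. Both TIMP3 and SALL2 were thus far above their SKOV3 construct levels. TSPYL5, at 11.3 to 14.8 CPM in every SKOV3 construct library, had 0 counts in all 4 OVCAR3 libraries, as did RNASE1 and LINC00330 of the off genes, and SLC43A3 had 2 counts in 1 library. Of off genes, PXMP4 had 37.2 and 36.9 CPM in UAB and 46.9 and 48.3 CPM in scrambled peptide libraries, and LINC02864 12.3 and 13.2 CPM in UAB and 16.7 and 16.6 CPM in scrambled peptide libraries. OVCAR3 thus had genes of both kinds at once, and matched neither the SKOV3 control nor the construct cells.

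The UAB peptide against the scrambled peptide asks whether the UAB region given as a peptide goes with the level of these genes in a line in which they were not chosen. Of the 37 on genes 23 passed the filter on low counts and were tested; 2 were higher, 2 lower and 19 did not pass. Over all 18359 tested genes 5.45% were higher and 5.46% lower, 10.9% in either direction. Of the 22 off genes 11 were tested; 1 was higher, 3 lower and 7 did not pass. With 2 libraries in each group these counts move with single libraries.

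LRATD1 had 28.8 and 25.4 CPM in UAB and 6.63 and 5.18 CPM in scrambled peptide libraries, a log2 fold change of 2.20 ± 0.184 (edgeR adjusted p = 4.06e-06). GPR162 had 26.03 and 27.2 CPM in UAB and 17.7 and 14.7 CPM in scrambled peptide libraries, a log2 fold change of 0.72 ± 0.159 (edgeR adjusted p = 0.00948). LRATD1 had the largest rise of the on genes tested. Without scrambled replicate 2 GPR162 no longer passed (edgeR adjusted p = 0.0540), and its exons overlap those of P3H3 on the same strand. SHROOM4 had 1.91 and 1.69 CPM in UAB and 7.22 and 8.99 CPM in scrambled peptide libraries, a log2 fold change of -2.16 ± 0.266 (edgeR adjusted p = 0.000117). ARRDC4 had 10.9 and 10.9 CPM in UAB and 16.9 and 23.6 CPM in scrambled peptide libraries, a log2 fold change of -0.89 ± 0.189 (edgeR adjusted p = 0.00665). SHROOM4 and ARRDC4 thus fell with the UAB peptide, and without scrambled replicate 2 the number of on genes lower was 4 in place of 2.

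TMPRSS15, off in both SKOV3 constructs, had 118 and 104 CPM in UAB and 18.5 and 34.5 CPM in scrambled peptide libraries, a log2 fold change of 2.06 ± 0.219 (edgeR adjusted p = 2.94e-05). It was the off gene that rose with the peptide, and stood above PXMP4 in UAB libraries and below it in scrambled peptide libraries. ELMO1 had 2.45 and 1.91 CPM in UAB and 6.58 and 4.11 CPM in scrambled peptide libraries, a log2 fold change of -1.29 ± 0.310 (edgeR adjusted p = 0.0152). HPGD had 3.53 and 2.40 CPM in UAB and 4.87 and 7.39 CPM in scrambled peptide libraries, a log2 fold change of -1.04 ± 0.293 (edgeR adjusted p = 0.0341). LEF1 had 11.6 and 9.82 CPM in UAB and 20.6 and 14.8 CPM in scrambled peptide libraries, a log2 fold change of -0.72 ± 0.196 (edgeR adjusted p = 0.0278). These 3 fell, and each lost its call without 1 library: ELMO1 without scrambled replicate 1, HPGD without UAB replicate 2 or scrambled replicate 2, and LEF1 without UAB replicate 2 or scrambled replicate 1. RADX, at 3.19 and 2.95 CPM in UAB and 1.62 and 1.34 CPM in scrambled peptide libraries, stood 1.05 ± 0.338 log2 units higher, short of the threshold (edgeR adjusted p = 0.0623).

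The 4 on genes called in OVCAR3 were all among the 17 called between the constructs in SKOV3, which is 100% of the first list and 23.5% of the second. Of the 23 on genes tested in OVCAR3, 14 (60.9%) were called between the constructs. In RSF1 over RSF1delUAB and in UAB over scrambled peptide, the log2 fold changes were -0.76 and 2.20 for LRATD1, -0.99 and 0.72 for GPR162, -0.92 and -2.16 for SHROOM4 and -1.80 and -0.89 for ARRDC4. The contrasts are different interventions in different lines and the difference between them was not tested.

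**Figure D3:**
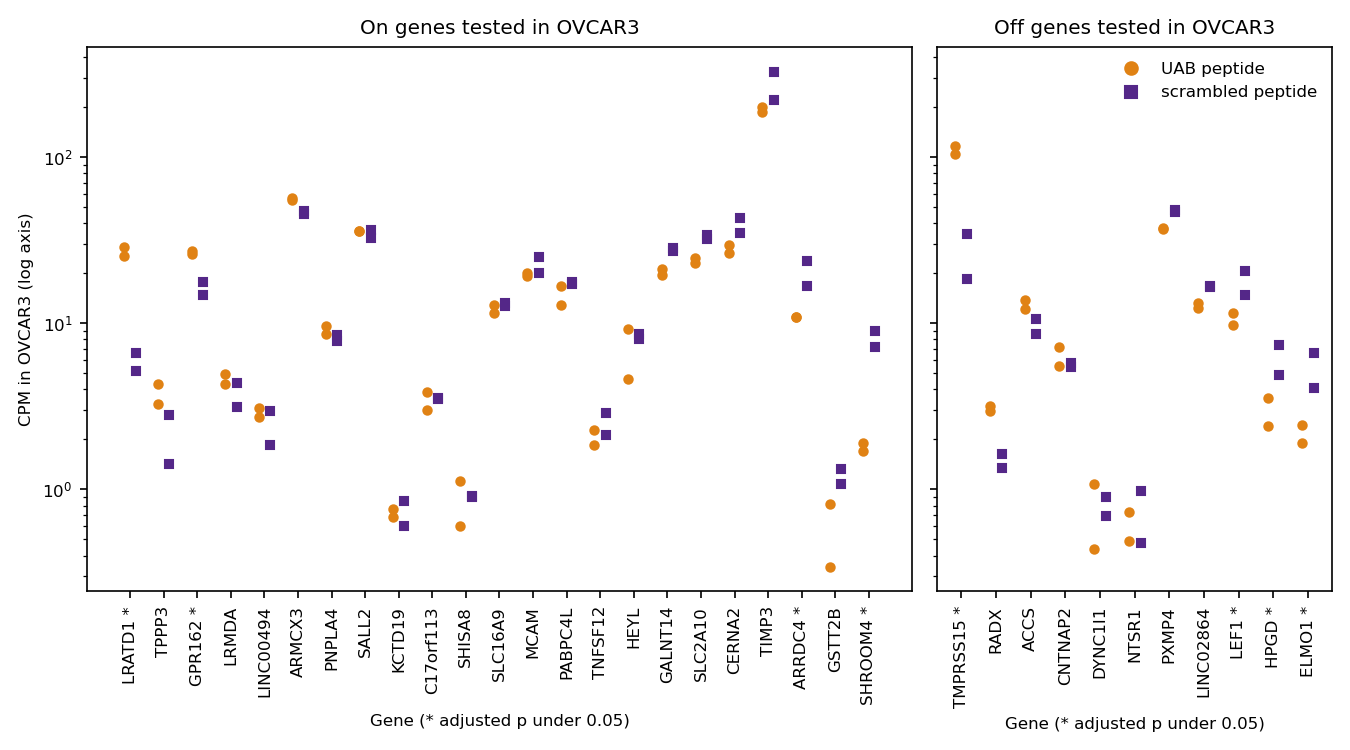
CPM in each OVCAR3 library on a log axis for the 23 on genes (left) and 11 off genes (right) that were tested, sorted by fold change, with orange circles for UAB and purple squares for scrambled peptide libraries and asterisks at genes with an adjusted p under 0.05. LRATD1 and TMPRSS15 stand at the left ends with 25.4 to 28.8 and 104 to 118 CPM in UAB against 5.18 to 6.63 and 18.5 to 34.5 CPM in scrambled peptide libraries.

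On genes lay on 17 chromosomes and off genes on 11. Within 500 kb of another of their kind were KCTD19 and TPPP3 on chromosome 16, an overlapping transcript and pseudogene on chromosome 1, RADX and RNF128 on the X chromosome, and SNTG1 and an adjacent lincRNA on chromosome 8. Most therefore stood alone. Around the on genes, 421 other tested genes had a body within 500 kb of theirs, of which 45.4% were higher and 23.5% lower in RSF1 than in control cells, against 34.3% and 32.9% of all tested genes (67.3% in either direction). In RSF1delUAB against control the same neighbours were higher in 45.8% and lower in 21.9%, against 34.5% and 32.1% of all tested genes (66.6% in either direction). Their median log2 fold changes were 0.24 and 0.24, against 0.01 for all. Around the off genes, of 119 neighbours 28.6% were higher and 47.1% lower in RSF1, and 25.2% higher and 42.0% lower in RSF1delUAB than in control cells, with medians of -0.24 and -0.17. Both comparisons share the control libraries, and genes of a region are not independent of each other. Taken gene by gene, the median over the neighbours was above 0 in RSF1 for 24 and in RSF1delUAB for 25 of the 35 on genes with a tested neighbour, and below 0 for 11 in each of the 2 constructs among the 19 off genes with one. The 5 on genes in the densest regions had 198 neighbours between them, counting shared ones again. Higher in both constructs were 22 of 30 neighbours of SHISA8, 22 of 40 of TNFSF12, 19 of 39 of KCTD19 and 15 of 25 of CABP4, with 0, 5, 2 and 0 lower. Over all tested genes other than the on and off genes, 27.35% were higher and 25.37% lower in both. GPR162 had the most neighbours, 46, of which 10 were higher and 8 lower in both. Regions also went the other way: of 24 neighbours of STAB1 2 were higher and 17 lower in both constructs, of 24 of MCAM 4 were higher and 10 lower, and of 15 of the off gene RNASE1 9 were higher and 3 lower.

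Some neighbours of on genes were also nearly absent in control cells. MRLN, which encodes a small regulator of the muscle calcium pump and lies beside SLC16A9, had 6.57 ± 2.00 CPM in RSF1 and 13.3 ± 1.37 CPM in RSF1delUAB libraries, against 1 count over the control libraries. SFTA1P, a pseudogene beside CELF2, had 6.45 ± 1.53 CPM in RSF1 and 1.95 ± 0.476 CPM in RSF1delUAB libraries, against 1 count over the control libraries. ARMCX6, beside its relative ARMCX3, had 7.66 ± 0.944 CPM in RSF1 and 6.49 ± 1.71 CPM in RSF1delUAB libraries, against 0.241 ± 0.232 CPM in control libraries. LINC02251, beside ARRDC4, had 12 counts over the RSF1 and 61 over the RSF1delUAB libraries, against 0 over the control libraries. GATA5, a transcription factor near the off gene NTSR1, went against the gene beside it and had 3.24 ± 0.637 CPM in RSF1 and 0.445 ± 0.149 CPM in RSF1delUAB libraries, against 0 counts in control libraries. These neighbours were chosen after their values were seen.

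On a wider scale, the median log2 fold change over the other tested genes of a chromosome arm was above 0 in RSF1 against control for 17 arms with 48.3% of tested genes, and these held 19 on genes (51.4%) and 6 off genes (27.3%). In RSF1delUAB against control it was above 0 for 18 arms with 45.5% of tested genes, which held 21 on genes (56.8%) and 5 off genes (22.7%). The arm 22q, with the highest medians of 0.94 and 0.95, held 3 on genes, and 19q, with 0.67 and 0.52, held no on or off gene. The arm 4q, with -0.69 and -0.73, held 2 off genes and 1 on gene, and 13q and 18q, with -0.58 and -0.69 and with -0.52 and -0.58, held 2 off genes each. The arms 1q and 3p, with -0.52 and -0.54 and with -0.55 and -0.56, held 2 on genes each and no off gene. No arm held more off genes than 8q and Xq, with 3 each and medians of -0.21 and -0.01 and of -0.19 and -0.05. DNA copy number was not measured, and its part was not tested.

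**Figure D4:**
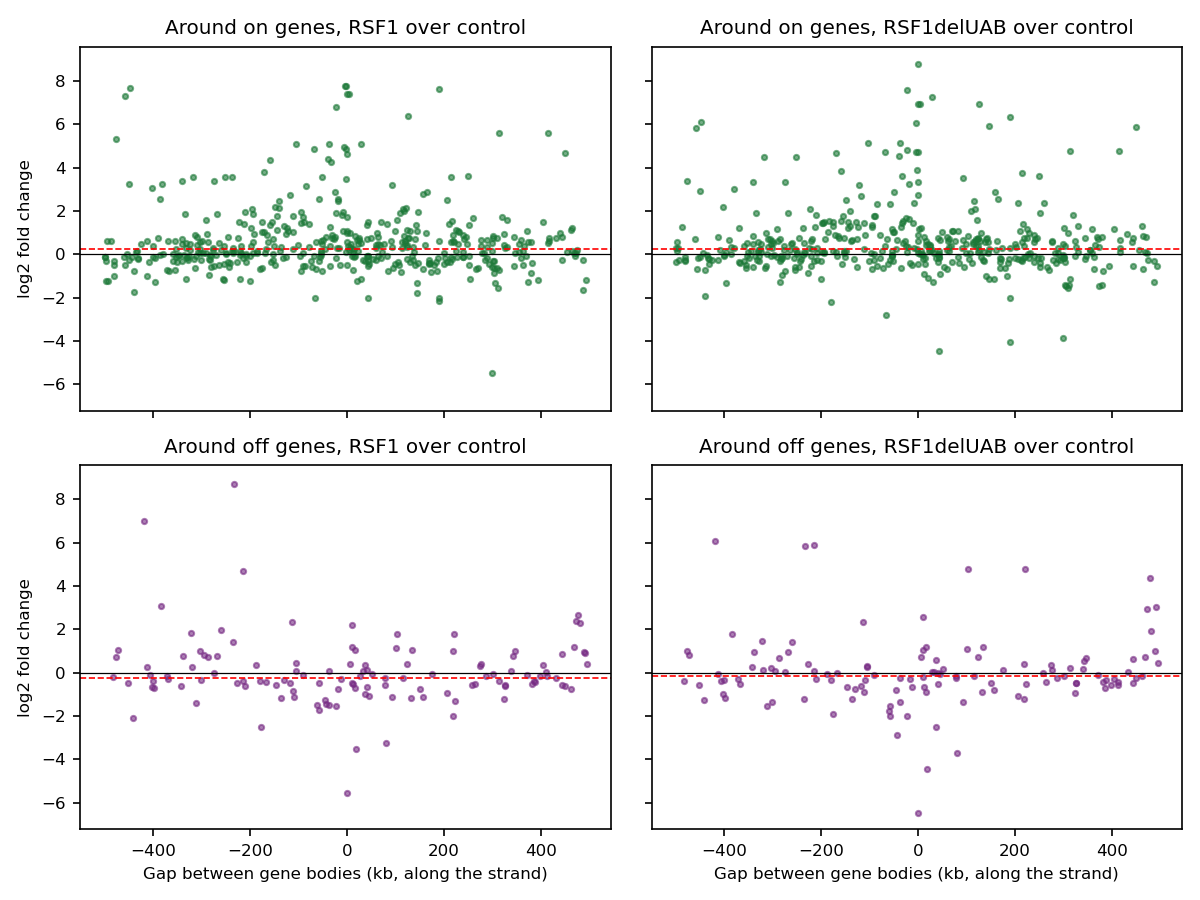
Fitted log2 fold change over control of tested genes within 500 kb of an on gene (top, green) or off gene (bottom, purple), in RSF1 (left) and RSF1delUAB (right), against the gap between the gene bodies in kb along the strand, 0 where they overlap; the dashed line is the median over the neighbours and the black line marks 0. The dashed lines stand at 0.24 and 0.24 around on genes and at -0.24 and -0.17 around off genes, with single neighbours far from them on both sides.

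Factors of DNA methylation and heterochromatin were read as a list of 34 tested genes. Not all of them keep other genes silent, since the list also holds TET1, TET2, TET3, TDG and MBD4. In both comparisons with control TET2 and TDG were lower, MBD4 was higher, and TET1 and TET3 did not pass. In RSF1 against control 9 were higher and 18 lower, and in RSF1delUAB against control 9 were higher and 15 lower. Over all tested genes 34.3% were higher and 32.9% lower in RSF1, and 34.5% and 32.1% in RSF1delUAB. The de novo DNA methyltransferase DNMT3B was at log2 fold changes of 1.11 and 0.79, the maintenance enzyme DNMT1 at -0.66 and -0.66, the methyl-CpG binding protein MBD1 at -1.22 and -1.35, and the HUSH complex subunit MPHOSPH8 at -1.38 and -1.87 (edgeR adjusted p of 1.34e-07 or less in all 8 tests). More of the list was lower, but DNMT3A at 0.39 and 0.85 and MORC2 at 0.78 and 0.88 were higher in both. So were TRIM28 at 0.59 and 0.22, EHMT2 at 0.26 and 0.44 and HDAC1 at 0.24 and 0.21 (edgeR adjusted p of 0.003702 or less in all). The HUSH subunits also differed, since TASOR was lower in both. PPHLN1 was higher in RSF1 (0.21, edgeR adjusted p = 0.00633) and did not pass in RSF1delUAB (edgeR adjusted p = 0.6565). The list's medians were -0.23 and -0.09, against 0.02 and 0.02 over all tested genes. Between RSF1 and RSF1delUAB 5 were higher and 9 lower, against 18.5% and 20.2% of all tested genes, and with the UAB peptide 3 were higher and 1 lower, against 5.45% and 5.46%.

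Families with members that DNA methylation or heterochromatin often silences were read beside them. Of 44 germline and cancer-testis genes 4 were expressed enough to test in SKOV3, of which 2 were higher and 1 lower in RSF1, and 1 higher and 2 lower in RSF1delUAB than in control cells, beside 34.3% higher and 32.9% lower of all tested genes in RSF1 and 34.5% and 32.1% in RSF1delUAB. The melanoma antigen PRAME was at 2.31 and 2.37. SPANXB1 had 5 counts over the RSF1 and 24 over the RSF1delUAB libraries, against 1426 over the control libraries, with log2 fold changes of -8.10 and -6.07, and SPANXD had 65, 0 and 6 counts over these groups. SPANX genes are near copies of each other, so their values are uncertain, and PNLDC1 did not pass. Of 20 imprinted genes 4 were higher and 9 lower in RSF1, and 6 higher and 10 lower in RSF1delUAB, where the same shares of all genes apply. The armadillo repeat, BEX and TCEAL genes of Xq22, the band of ARMCX3, were higher in 6 of 11 cases in RSF1 and in 5 of 11 in RSF1delUAB than in control cells. ARMCX3 itself was not counted, and the others did not pass. BEX3 was at 2.08 and 2.11 and TCEAL9 at 1.66 and 1.61. Of this list only ARMCX6 was among the 7 tested genes within 500 kb of ARMCX3. Of those 7, 1 was higher and 2 lower in both constructs, with medians of -0.14 and -0.30. In OVCAR3 18 genes of the Xq22 list were tested, of which 1 was higher and 2 lower with the UAB peptide. Of 9 germline genes 2 were higher and the others did not pass. Of 23 imprinted genes 3 were higher and 1 lower, beside 5.45% and 5.46% of all tested genes.

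Relatives of the on genes SLC43A3, SLC2A10, ARRDC4 and LRATD1, and of SLCO2B1 and TENM4, were read in the same way. SLCO2B1 and TENM4 met the counts for on but were left out of the on genes by their position near RSF1. Genes that met the counts of the rule are not in the numbers below. Beside the same shares of all tested genes, 34.3% higher and 32.9% lower in RSF1 and 34.5% and 32.1% in RSF1delUAB, of 16 SLCO, SLC43 and SLC2 transporters 5 were higher and 4 lower in RSF1, and 4 higher and 10 lower in RSF1delUAB than in control cells. Of 10 alpha-arrestins, teneurins, their latrophilin partners and LRATD2, 3 were higher and 3 lower in RSF1, and 7 higher and 1 lower in RSF1delUAB. TXNIP, an alpha-arrestin that like ARRDC4 limits glucose uptake, was at 1.45 and 2.37 (edgeR adjusted p = 9.13e-14 and 5.45e-17), and at -0.92 in RSF1 against RSF1delUAB (edgeR adjusted p = 2.44e-10), where ARRDC4 was at -1.80. With the UAB peptide TXNIP was at -0.47 and did not pass (edgeR adjusted p = 0.0673).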

How the data were processed

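For each line the authors deposited a table of raw read counts by gene. The submitters' processing notes name FastQC, STAR 2.7.9a and Subread and the builds GRCh38, hg38 and GRCm38; which annotation was counted, and whether by strand, is not given in the sources used here. The 17 on and 8 off genes whose exons overlap those of another gene are uncertain. Of these, 10 on and 2 off genes overlap a gene of the same strand, where strand would not help, among them GPR162 with P3H3 and TNFSF12 with TNFSF12-TNFSF13. Others overlap on opposite strands and are uncertain without strand, among them LEF1 with LEF1-AS1 and ELMO1 with ELMO1-AS1. A record split over 3 lines (ANK2) was rejoined. Groups came from the labels; the name of the column read as scrambled peptide replicate 2 has a letter that no label explains. Gene types are from GENCODE 29.

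Each line was fitted with edgeR 4.0.16 (R 4.3.3, limma 3.58.1): TMM scaling, filterByExpr (minimum count 10), a quasi-likelihood test of every group of the line in 1 fit, a prior count of 0.125, and Benjamini-Hochberg adjustment over 16735 genes in SKOV3 (6 residual degrees of freedom) and 18359 in OVCAR3 (2), with a threshold of 0.05. Where a group was at 0, its fold was bounded by setting 3 counts over the group. Promoters on chromosome 8 were not shown. The genes and lists were chosen with earlier results of these data known. Named are the 15 on genes and 12 off genes of highest level, up to 6 per direction past the threshold in each comparison, the 6 of each kind of highest level in OVCAR3, the 3 nearest to the limits on each side, neighbours and list members; the remaining genes with a protein were named after their values were seen. On simulated data with known changes at folds of 1.5, 2 and 4 the fit called 59.7%, 80.6% and 97.0% of changed genes between RSF1 and RSF1delUAB (16266 genes, 3.66% of calls false), and 23.9%, 64.2% and 89.4% between UAB and scrambled peptide (17894 genes, 10.6% of calls false). Alternatives were RLE scaling, DESeq2 1.42.0, no filter on low counts, the replicate number as a block, each replicate left out, and other limits of the rule.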

Additional observations from a re-analysis of the deposited data

How the results depend on the processing

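With limits of 10 or 40 counts in place of 20, 54 or 22 genes were on and 35 or 15 off; with at most 3 counts on the low side, 75 were on and 15 off. Between RSF1 and RSF1delUAB the number of on genes lower, 14, was 9 with DESeq2, 12 without the filter, 14 with RLE scaling and 7 to 11 without 1 replicate, and the number higher, 3, was 3 to 4 without 1 replicate. With the replicate number as a block 13 were lower and 3 higher; same-numbered SKOV3 libraries deviated together at correlations of 0.07, 0.06 and -0.00, so the numbers do not pair them. Of 17 calls 9 held in every alternative: SLC43A3, GALNT14, HEYL, ARRDC4, SHISA8, SHROOM4, LINC00494, LRATD1 and 1 lincRNA identifier. PNPLA4, TIMP3, SLC2A10 and TPPP3 lost theirs in several, SALL2 without RSF1 or RSF1delUAB replicate 1, and PABPC4L and GPR162 without RSF1delUAB replicate 2.

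In OVCAR3 the on genes higher and lower, 2 and 2, were 1 to 3 and 2 to 4 without 1 replicate, and 4 were lower without the filter. Off genes higher, 1, were 1 without any 1 replicate and 2 without the filter, and off genes lower, 3, were 1 to 3 without 1 replicate. A replicate block gave 2, 2, 1 and 3, and the crossed pairing, added after the data were seen because same-numbered libraries deviated apart (-0.15), gave 4, 6, 3 and 5. LRATD1, SHROOM4, ARRDC4 and TMPRSS15 held in every alternative, HPGD lost its call with DESeq2, and TIMP3 gained one in several, with adjusted p = 0.0375 by DESeq2. Of 676 single-gene values under alternatives, 613 stayed on their side of the threshold, 41 lost and 22 gained a call; the cause was not tested. No called value changed direction, while 17 values of 12 genes that passed in neither setting changed sign, 4 of them between RSF1 and RSF1delUAB. Calls of genes at 1 to 5 CPM rest on 20 to 100 counts a library, where depth limits precision.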
